A study of Saccharomyces cerevisiae with 10 samples.

Results

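The evolved yeast strain Z100 was compared with the control strain XH7 without heat shock, using the 5 of the series' 10 messenger RNA libraries whose labels give 30 °C: 2 of XH7 and 3 of Z100. Of the 6059 genes in the table, the 6015 that passed a filter on low counts were tested. Both strains are budding yeast, Saccharomyces cerevisiae, and the series set out to find genetic changes in Z100, which had been evolved under modest heat stress. The other 5 libraries were taken after 1 h at 50 °C, 2 of XH7 and 3 of Z100, and enter below only where the strain difference is set against its value after heat. The labels call Z100 the adaptive strain and XH7 the control strain. The sources used here do not give genotype, ploidy, medium, growth phase or whether Z100 is a single clone. The protocol text places the cultures without heat shock in a mixture of ice and water, so the temperature of the cells at harvest is uncertain for both strains. The labels do not say whether the libraries of a group are separate cultures, and p-values therefore describe a spread among libraries that may be technical.

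Budding yeast growing on plentiful glucose ferments it and represses respiration, the use of other carbon sources and the storage of carbohydrate. High activity of the Ras and protein kinase A pathway favours ribosome synthesis and holds back the transcription factors Msn2 and Msn4, which drive a broad set of stress genes through the short stress response element. When glucose runs low or growth slows, cells accumulate trehalose and glycogen, build up mitochondrial enzymes, and reduce transcription of the genes for making ribosomes. Trehalose is known for protecting proteins and membranes of yeast during heat.

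Counts at 30 °C summed to between 51901045 and 76900700 per library, and log2 CPM (scaled counts set to a common library size) had an SD among libraries of 0.0917 in XH7 and 0.174 in Z100, as the median of all genes. A strain difference is given below as a log2 fold change, Z100 minus XH7, ± its SE. At an adjusted p under 0.05 (edgeR quasi-likelihood test, Benjamini-Hochberg over all genes), 861 genes were higher in Z100, 14.3% of those tested, and 848 were lower, 14.1%, so 28.4% were called in either direction. Of these, 464 were higher by at least 1 on the log2 scale and 340 lower by at least 1, while 82 and 32 differed by at least 2. The Z100 libraries did not overlap the XH7 libraries in 860 of the 861 higher genes and in all 848 lower genes. Among all genes tested, 31.8% had every Z100 library above both XH7 libraries and 40.5% had every Z100 library below. The median log2 fold change over all genes was -0.08, and -0.21 when counts were scaled by library size alone. The calls rest on few XH7 libraries: 552 genes were called without XH7 library 1 and 292 without XH7 library 2, against 1139, 1060 and 924 without Z100 libraries 1, 2 and 3. With 1 library left in a group, its spread is taken from the other groups. List counts from refits below are to be read beside these totals, since some then lie near the share of all genes. In these data a lower share of cells in some state and less RNA per cell cannot be told apart.

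**Figure D1:**
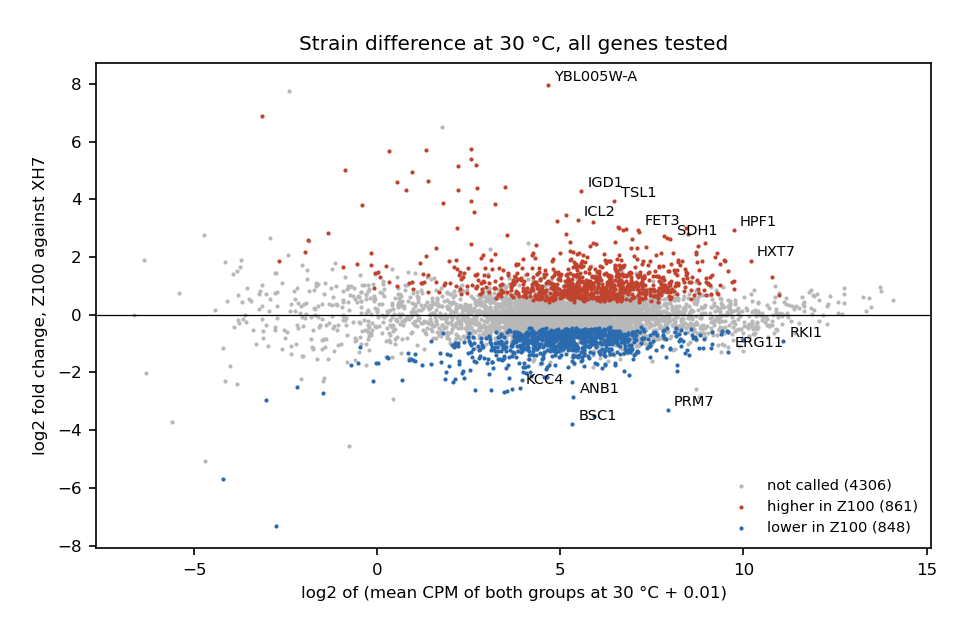
Each point is 1 of 6015 genes, with the log2 of the mean CPM of both strains at 30 °C (plus an offset of 0.01) on the horizontal axis and the log2 fold change of Z100 against XH7 on the vertical axis. The 861 genes called higher are red, the 848 called lower are blue, and some genes described in the text are named.

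The promoters of 5 genes with large differences are shown first, because the motifs AGGGG and GCGATGAG, like TGACTC below, were in different shares of the promoters called in each direction. AGGGG (reverse complement CCCCT) is the core of the stress response element. GCGATGAG (reverse complement CTCATCGC) is the PAC motif found before many genes of ribosome biogenesis. Each window runs from 250 bases before to 50 bases after the start of the reading frame on the R64 genome, is written 5′ to 3′ on the gene's strand, and has matches to these 2 motifs on either strand in capitals. IGD1, TSL1, RTC3 and CTT1 are shown for AGGGG and KRR1 for GCGATGAG. IGD1 lies at chrVI:182812-183111 on the minus strand, TSL1 at chrXIII:70374-70673 on the plus strand, RTC3 at chrVIII:280570-280869 on the plus strand, CTT1 at chrVII:654384-654683 on the plus strand and KRR1 at chrIII:23330-23629 on the minus strand.
IGD1: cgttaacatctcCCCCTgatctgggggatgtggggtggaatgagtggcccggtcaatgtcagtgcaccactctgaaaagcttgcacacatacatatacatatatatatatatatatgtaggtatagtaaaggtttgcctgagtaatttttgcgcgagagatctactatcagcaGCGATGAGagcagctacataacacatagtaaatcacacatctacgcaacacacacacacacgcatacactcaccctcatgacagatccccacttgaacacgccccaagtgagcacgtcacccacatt
TSL1: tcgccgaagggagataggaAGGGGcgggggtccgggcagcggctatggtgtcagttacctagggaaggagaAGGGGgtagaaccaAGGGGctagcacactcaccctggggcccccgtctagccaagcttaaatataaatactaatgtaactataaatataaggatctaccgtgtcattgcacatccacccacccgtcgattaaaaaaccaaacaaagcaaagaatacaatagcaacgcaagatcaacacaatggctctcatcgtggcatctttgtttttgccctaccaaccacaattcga
RTC3: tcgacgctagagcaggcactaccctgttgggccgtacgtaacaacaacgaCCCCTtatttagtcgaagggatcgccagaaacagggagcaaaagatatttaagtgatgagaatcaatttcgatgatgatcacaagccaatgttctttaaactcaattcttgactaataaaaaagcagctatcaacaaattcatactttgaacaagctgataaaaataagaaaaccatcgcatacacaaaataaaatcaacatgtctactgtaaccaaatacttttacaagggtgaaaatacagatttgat
CTT1: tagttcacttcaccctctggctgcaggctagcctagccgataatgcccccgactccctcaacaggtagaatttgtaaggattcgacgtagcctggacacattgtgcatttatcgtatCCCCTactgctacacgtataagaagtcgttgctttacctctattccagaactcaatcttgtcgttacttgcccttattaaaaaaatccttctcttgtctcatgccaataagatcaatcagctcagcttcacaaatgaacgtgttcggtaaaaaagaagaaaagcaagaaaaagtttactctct
KRR1: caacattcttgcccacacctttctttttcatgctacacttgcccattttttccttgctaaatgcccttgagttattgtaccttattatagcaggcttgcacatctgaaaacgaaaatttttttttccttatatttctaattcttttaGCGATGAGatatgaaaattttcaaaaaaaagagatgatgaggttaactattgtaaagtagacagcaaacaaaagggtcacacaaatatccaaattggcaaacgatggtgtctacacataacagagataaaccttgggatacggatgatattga
TSL1 held 3 matches to AGGGG and the other 3 stress promoters 1 each, between 133 and 238 bases before the start codon. KRR1 held 1 match to GCGATGAG, 103 bases before its start codon. IGD1 held 1 match to GCGATGAG as well, 77 bases before its start codon, so the gene with the largest rise of these 5 carries both motifs.

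Over protein-coding genes, AGGGG was found in 289 of 858 promoters of genes called higher (33.7%), in 132 of 839 of genes called lower (15.7%) and in 1269 of 5902 in all (21.5%). GCGATGAG was found in 15 promoters of genes called higher (1.75%), in 73 of genes called lower (8.7%) and in 235 in all (3.98%). By list, 25 of 40 promoters of general stress genes (62.5%) held AGGGG, and 60 of 110 promoters of ribosome biogenesis genes (54.5%) held GCGATGAG. The other motifs searched on both strands were CCAAT, the core recognised by the Hap complex, TGACTC, recognised by Gcn4, and GAANNTTC, a core of the heat shock element. CCAAT was in 45.0% of promoters of genes called higher, 43.3% of genes called lower and 43.2% of all, and in 79.5% of promoters of the respiratory chain list. TGACTC was in 10.7%, 5.48% and 8.01%, and GAANNTTC in 9.56%, 13.1% and 11.8%, in the same order. A match describes the letters in the window and is not evidence of binding. A base could belong to matches of more than 1 motif.

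Genes of trehalose and glycogen storage made up several of the largest rises in Z100. IGD1, an inhibitor of glycogen debranching, stood at 5.10 and 4.28 CPM in the XH7 libraries and 64.5, 127 and 81.1 CPM in the Z100 libraries (4.27 ± 0.38 log2, adjusted p = 0.000142). TSL1, which encodes a large regulatory subunit of trehalose synthase, stood at 11.5 and 10.2 CPM in the XH7 libraries and 154, 185 and 161 CPM in the Z100 libraries (3.94 ± 0.36 log2, adjusted p = 0.000161). Both were picked for large rises without overlap between the strains, so that separation adds no evidence. Of the 7 trehalose genes tested, 4 were higher and 0 lower, with a median log2 fold change of 0.96, and their summed level was 383 to 420 CPM in XH7 and 1188 to 1761 CPM in Z100. The catalytic subunit TPS1 had 103 and 75.4 CPM in XH7 against 492, 923 and 464 CPM in Z100 and rose by 2.81 ± 0.47 on the log2 scale (adjusted p = 0.00299, and 0.0588 without XH7 library 2). The phosphatase TPS2 rose by 1.51 ± 0.23 (adjusted p = 0.00194), with 102 and 95.2 CPM in XH7 against 270, 329 and 248 CPM in Z100. The regulatory subunit TPS3 rose by 0.96 ± 0.20 (adjusted p = 0.00948), a call that ended without XH7 library 1 (adjusted p = 0.0705) or XH7 library 2 (0.106). The trehalose count was 3 without XH7 library 1 and 2 without XH7 library 2.

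Of 16 genes of glycogen metabolism, 10 were higher and 0 lower, with a median of 0.81. Synthesis and breakdown rose together. Glycogen synthase GSY1 had 19.8 and 21.2 CPM in XH7 against 126, 214 and 168 CPM in Z100 (3.05 ± 0.28 log2, adjusted p = 0.000179), the branching enzyme GLC3 78.8 and 74.8 CPM in XH7 against 397, 954 and 484 CPM in Z100 (2.99 ± 0.38 log2, adjusted p = 0.000847), and glycogen phosphorylase GPH1, which breaks the polymer down, 23.1 and 20.5 CPM in XH7 against 152, 172 and 196 CPM in Z100 (2.99 ± 0.31 log2, adjusted p = 0.000308). GLC3 was uneven within Z100, highest in library 2. The glycogen count was 5 without either XH7 library. IGD1, GSY1, GLC3, GPH1, TSL1 and TPS2 kept their calls with any single library left out.

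**Figure D2:**
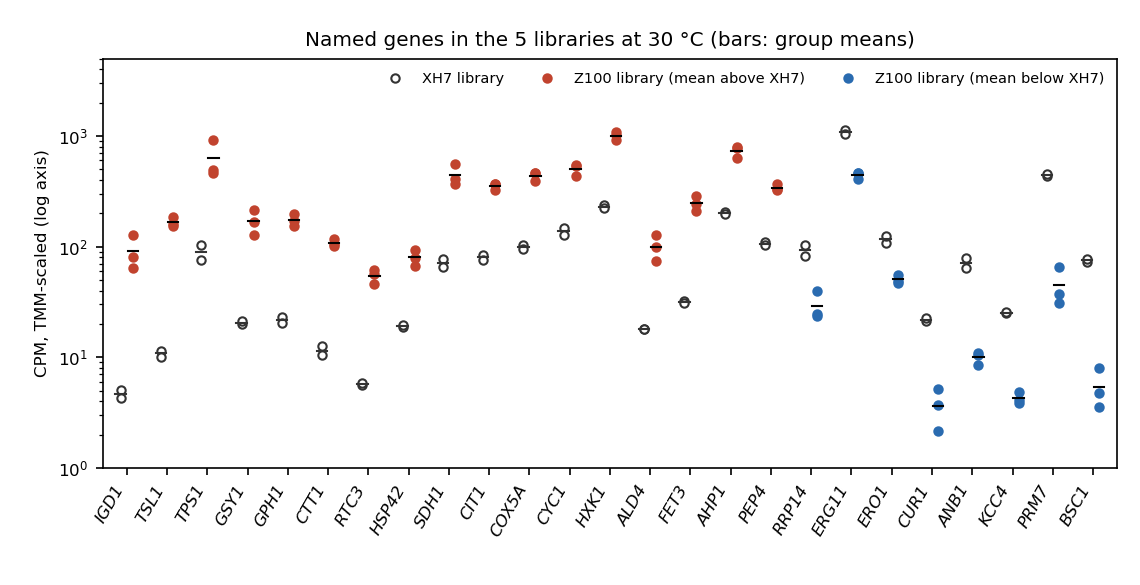
CPM on a log axis in each of the 5 libraries at 30 °C for 25 genes named in the text, with open points for XH7 and filled points for Z100 and short bars at the group means. In none of these genes do the points of the strains overlap, as in nearly all called genes.

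General stress genes were higher in Z100. Of 40 genes of the list, 20 were higher and 1 lower, the median was 1.01, and 37 had every Z100 library above both XH7 libraries. Without XH7 library 1 or 2 the count of higher genes was 8, and without Z100 library 3 it was 13. The cytosolic catalase CTT1, which removes hydrogen peroxide, stood at 12.6 and 10.4 CPM in the XH7 libraries and 105, 100.4 and 116 CPM in the Z100 libraries (3.22 ± 0.28 log2, adjusted p = 0.00014). RTC3, a stress protein of the cytosol, stood at 5.60 and 5.86 CPM in the XH7 libraries and 61.04, 45.6 and 56.9 CPM in the Z100 libraries (3.25 ± 0.26 log2, adjusted p = 0.000127). The small plasma membrane heat shock protein HSP30 had 34.8 and 34.8 CPM in XH7 against 212, 206 and 225 CPM in Z100 (2.62 ± 0.22 log2, adjusted p = 0.00014), and TMA10, a ribosome-associated protein, 6.18 and 6.68 CPM in XH7 against 35.1, 20.3 and 46.6 CPM in Z100 (2.40 ± 0.39 log2, adjusted p = 0.00262). These 4 calls held with any single library left out. DPI8, which is on none of the lists, was also among the largest rises, with 6.38 and 5.61 CPM in XH7 against 71.3, 67.7 and 56.2 CPM in Z100 (3.44 ± 0.48 log2, adjusted p = 0.00135). GRX1, a glutaredoxin, was the 1 lower gene (-0.74 ± 0.25 log2, adjusted p = 0.049). Its call ended without either XH7 library (adjusted p = 0.205 and 0.179), Z100 library 2 (0.113) or Z100 library 3 (0.0978), without each Z100 library at 50 °C, under the other scalings and with the 5 CPM filter (adjusted p up to 0.0658).

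Heat shock chaperones were called in both directions. Of 32 cytosolic chaperones tested, 4 were higher and 8 lower, with a median of -0.27. Among all genes tested 14.3% were higher and 14.1% lower, so the 4 higher calls are no more than that share. HSP42, a small heat shock protein that gathers misfolded proteins, rose (18.6 and 19.6 CPM in XH7 against 79.6, 93.6 and 67.02 CPM in Z100, 2.07 ± 0.23 log2, adjusted p = 0.000409). The disaggregase HSP104 rose (144 and 135 CPM in XH7 against 284, 320.2 and 264 CPM in Z100, 1.05 ± 0.23 log2, adjusted p = 0.00968), but not without XH7 library 1 (adjusted p = 0.0663) or XH7 library 2 (0.113). CUR1, which sorts misfolded proteins into nuclear deposits, fell: 21.2 and 22.7 CPM in the XH7 libraries and 5.12, 2.17 and 3.70 CPM in the Z100 libraries (-2.58 ± 0.36 log2, adjusted p = 0.0014). Its paralogue BTN2 also fell (21.9 and 21.5 CPM in XH7 against 12.5, 4.41 and 9.75 CPM in Z100, -1.29 ± 0.42 log2, adjusted p = 0.0456). The BTN2 call ended without either XH7 library (adjusted p = 0.152 and 0.186), Z100 library 2 (0.0949), Z100 library 3 (0.0948) or Z100 library 3 at 50 °C, and under upper-quartile scaling, library size alone, the 5 CPM filter and the block (up to 0.0827). Without XH7 library 2 the counts were 1 higher and 1 lower, and without XH7 library 1 they were 1 and 3.

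Many genes of mitochondrial respiration rose in Z100 and 0 fell. Of 19 genes of the TCA cycle, which oxidises acetyl groups, 16 were higher and 0 lower, and the median was 1.45. Their summed level was 2099 to 2278 CPM in XH7 and 5509 to 6026 CPM in Z100. The count was 15 without XH7 library 1, 11 without XH7 library 2 and 16 without each Z100 library. SDH1, the catalytic subunit of succinate dehydrogenase, stood at 77.7 and 64.9 CPM in the XH7 libraries and 366, 554 and 406 CPM in the Z100 libraries (2.63 ± 0.35 log2, adjusted p = 0.0011). Its iron-sulphur subunit SDH2 had 47.4 and 38.1 CPM in XH7 against 159.9, 154 and 159.5 CPM in Z100 (1.88 ± 0.19 log2, adjusted p = 0.000264), and the membrane anchor SDH4 38.6 and 36.6 CPM in XH7 against 142, 164 and 169 CPM in Z100 (2.07 ± 0.27 log2, adjusted p = 0.000956). Citrate synthase CIT1, the entry enzyme, had 83.4 and 76.1 CPM in XH7 against 365, 369 and 323 CPM in Z100 (2.14 ± 0.21 log2, adjusted p = 0.000191). In these 4 genes the strains did not overlap, as in nearly all called genes.

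Of 39 genes of the respiratory chain and ATP synthase, 26 were higher and 0 lower, with a median of 1.07, and 36 had every Z100 library above both XH7 libraries. Without XH7 libraries 1 and 2 in turn the counts were 17 and 14. INH1, an inhibitor of the mitochondrial ATPase, rose most within the list: 8.59 and 9.48 CPM in the XH7 libraries and 66.8, 58.7 and 61.3 CPM in the Z100 libraries (2.79 ± 0.19 log2, adjusted p = 8.49e-05). COX5A, the cytochrome oxidase subunit used in aerobic cells, had 104 and 95.8 CPM in XH7 against 393, 459 and 462 CPM in Z100 (2.13 ± 0.18 log2, adjusted p = 0.00014), the internal NADH dehydrogenase NDI1 40.7 and 37.8 CPM in XH7 against 147, 167 and 130.4 CPM in Z100 (1.91 ± 0.20 log2, adjusted p = 0.000267), and cytochrome c CYC1 148 and 128 CPM in XH7 against 543, 534 and 433 CPM in Z100 (1.87 ± 0.24 log2, adjusted p = 0.00105). These 4 kept their calls with any single library left out. Of 41 proteins of the large mitochondrial ribosomal subunit, 19 were higher and 0 lower, with a median of 0.53. Without XH7 library 1 the count was 8, and without XH7 library 2 it was 7. MNP1 had 68.1 and 65.4 CPM in XH7 against 241, 239 and 239.9 CPM in Z100 (1.85 ± 0.16 log2, adjusted p = 0.00014). Libraries were made from poly(A) RNA, and transcripts of the mitochondrial genome took 0.0003% to 0.0007% of counts at 30 °C, so its own genes were too low to describe.

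**Figure D3:**
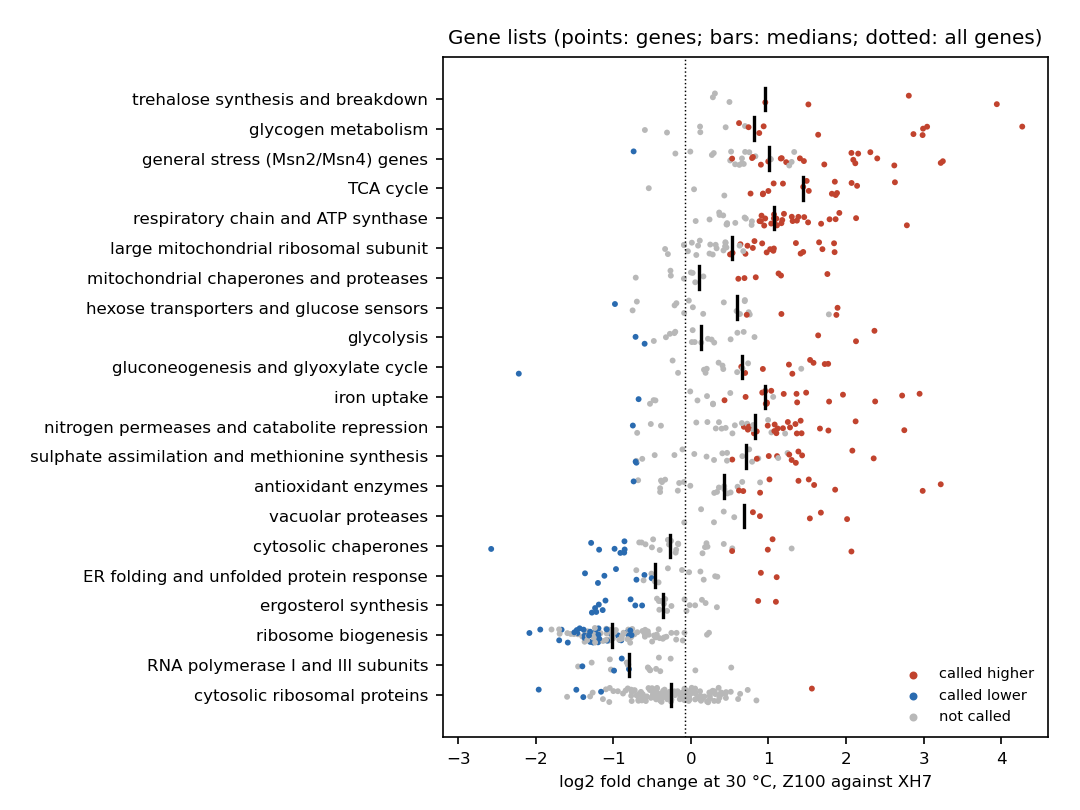
The log2 fold change at 30 °C of every tested gene in 21 of the lists (points: red called higher, blue called lower, grey not called), with the list median as a bar and the median of all genes, -0.08, as a dotted line. The bars of the TCA cycle (1.45) and ribosome biogenesis (-1.02) lie on opposite sides.

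Some genes of carbon use outside glycolysis rose in Z100, and most members of these lists were not called. ICL2, a mitochondrial 2-methylisocitrate lyase, stood at 8.80 and 7.93 CPM in the XH7 libraries and 92.2, 71.4 and 78.2 CPM in the Z100 libraries (3.27 ± 0.36 log2, adjusted p = 0.000409), and PDH1, a methylcitrate dehydratase, had 18.7 and 20.1 CPM in XH7 against 129.5, 101 and 87.99 CPM in Z100 (2.45 ± 0.22 log2, adjusted p = 0.000149). They are 2 of the 3 genes of the methylcitrate cycle, which breaks down propionate, and both kept their calls with any single library left out. ACH1, which transfers coenzyme A between acetate and succinate, had 26.6 and 23.4 CPM in XH7 against 158, 257 and 169.7 CPM in Z100 (2.96 ± 0.40 log2, adjusted p = 0.00129), and the mitochondrial aldehyde dehydrogenase ALD4 17.9 and 17.9 CPM in XH7 against 74.2, 127 and 99.1 CPM in Z100 (2.48 ± 0.25 log2, adjusted p = 0.000267). In all, 7 of 21 genes of ethanol and acetate metabolism were higher and 2 lower, with a median of 0.68. The count of higher genes was 4 without XH7 library 1 and 2 without XH7 library 2. Of 22 genes of gluconeogenesis, the glyoxylate cycle and acetate or lactate uptake, 9 were higher and 1 lower (3 higher without either XH7 library; median 0.66). The lactate dehydrogenases DLD1 (140.4 and 148 CPM in XH7 against 434, 603 and 396 CPM in Z100) and CYB2 (47.4 and 43.5 CPM in XH7 against 118, 155 and 134 CPM in Z100) rose by 1.73 ± 0.21 and 1.58 ± 0.26 (adjusted p = 0.000768 and 0.00252). Pyruvate carboxylase PYC1 rose by 1.54 ± 0.24 (adjusted p = 0.00211).

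In sugar uptake and entry, the high-affinity hexose transporters HXT6 and HXT7 were higher. HXT7 had 533 and 471 CPM in XH7 against 1470, 2059 and 1998 CPM in Z100 (1.88 ± 0.28 log2, adjusted p = 0.00195) and HXT6 313 and 283 CPM in XH7 against 853, 1258 and 1206 CPM in Z100 (1.89 ± 0.29 log2, adjusted p = 0.00211). The pair are near-identical copies, so the split of reads between them is uncertain. Over the list of 21 transporters and sensors, 4 were higher and 1 lower (2 higher without Z100 library 2 or 3 and without either XH7 library), with a median of 0.59. Hexokinase HXK1, known as the isoform used when glucose is scarce, had 237 and 223 CPM in XH7 against 909.6, 1082 and 1025 CPM in Z100 (2.13 ± 0.21 log2, adjusted p = 0.000206), and glucokinase GLK1 155 and 125 CPM in XH7 against 542, 930.1 and 694 CPM in Z100 (2.37 ± 0.47 log2, adjusted p = 0.00671; adjusted p = 0.0962 without XH7 library 2). Of 21 glycolysis genes 3 were higher and 2 lower, and the median was 0.13, which turned to -0.04 without XH7 library 2 and to -0.0036 when counts were scaled by library size alone. The count of higher genes was 1 without that library and 2 without XH7 library 1. The maltose permease MAL31 had 86.8 and 70.96 CPM in XH7 against 207, 321 and 248 CPM in Z100 (1.71 ± 0.26 log2, adjusted p = 0.00194).

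Of 29 iron uptake genes tested, 17 were higher, 1 lower and 11 not called, with a median of 0.96. Without XH7 library 1 the count of higher genes was 10, and without XH7 library 2 it was 9. FET3, the oxidase of the high-affinity iron transporter, stood at 32.5 and 31.2 CPM in the XH7 libraries and 243, 286 and 209 CPM in the Z100 libraries (2.95 ± 0.27 log2, adjusted p = 0.000179), and its partner permease FTR1 had 66.8 and 53.1 CPM in XH7 against 327, 498 and 364 CPM in Z100 (2.72 ± 0.34 log2, adjusted p = 0.000827). The ferric reductase FRE2 had 19.7 and 16.3 CPM in XH7 against 95.9, 88.3 and 95.7 CPM in Z100 (2.38 ± 0.31 log2, adjusted p = 0.00105), and TIS11, which promotes decay of messages for iron-using proteins, 3.12 and 2.66 CPM in XH7 against 13.7, 7.83 and 12.2 CPM in Z100 (1.96 ± 0.29 log2, adjusted p = 0.00187). Each of these 4 calls held with any single library left out.

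Genes for using nitrogen sources followed. Of 40 permeases and genes under nitrogen catabolite repression, 21 were higher and 1 lower, with a median of 0.83. The count of higher genes was 13 without Z100 library 3, 9 without XH7 library 1 and 5 without XH7 library 2. The proline permease PUT4 had 3.11 and 2.96 CPM in XH7 against 16.3, 23.9 and 21.1 CPM in Z100 (2.75 ± 0.41 log2, adjusted p = 0.00186), the methionine permease MUP3 13.4 and 10.4 CPM in XH7 against 41.8, 55.5 and 58.2 CPM in Z100 (2.12 ± 0.33 log2, adjusted p = 0.0023), and CAR2, an enzyme of arginine breakdown, 108 and 92.5 CPM in XH7 against 267, 378 and 306 CPM in Z100 (1.66 ± 0.23 log2, adjusted p = 0.00124). Glutamate decarboxylase GAD1, the first enzyme of the GABA route, had 25.7 and 22.9 CPM in XH7 against 149.7, 249 and 159 CPM in Z100 (2.94 ± 0.43 log2, adjusted p = 0.00172). In the list of 30 genes of sulphate assimilation and methionine synthesis, 11 were higher and 2 lower, with a median of 0.71. MET17, which makes homocysteine from sulphide, was uneven in Z100, with 60.7 and 44.7 CPM in XH7 against 412, 105 and 294 CPM in Z100 (2.36 ± 0.53 log2, adjusted p = 0.0115; adjusted p = 0.0639 and 0.128 without XH7 libraries 1 and 2). The count for this list was 6 without Z100 library 1 or 3, 2 without XH7 library 1 and 0 without XH7 library 2. Of 63 genes of other amino acid pathways, 15 were higher and 4 lower, with a median of 0.30 (8 higher without XH7 library 1 and 2 without XH7 library 2). The aminotransferases ARO8 (323 and 259.6 CPM in XH7 against 719, 689.6 and 716 CPM in Z100) and AAT2 (224 and 187 CPM in XH7 against 546, 492 and 459.7 CPM in Z100) both rose by 1.28 on the log2 scale (SE 0.20 and 0.18, adjusted p = 0.00215 and 0.0014).

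Among antioxidant enzymes, 10 of 31 were higher and 1 lower, with a median of 0.43 (5 and 4 higher without XH7 libraries 1 and 2). Sulphiredoxin SRX1, which repairs peroxiredoxins, was low in both strains but apart, with 1.05 and 0.961 CPM in XH7 against 8.67, 7.83 and 7.48 CPM in Z100 (2.99 ± 0.45 log2, adjusted p = 0.00194). The thiol peroxidase AHP1 had 206 and 198 CPM in XH7 against 790.3, 777 and 631 CPM in Z100 (1.86 ± 0.27 log2, adjusted p = 0.00161), and the mitochondrial peroxiredoxin PRX1 33.2 and 28.02 CPM in XH7 against 101, 80.3 and 94.97 CPM in Z100 (1.59 ± 0.20 log2, adjusted p = 0.000809). Of 10 vacuolar proteases and their inhibitors, 5 were higher and 0 lower, with a median of 0.68. That count was 2 without Z100 library 2 or XH7 library 1, 3 without Z100 library 3 and 1 without XH7 library 2. Proteinase A, PEP4, which activates the other vacuolar hydrolases, had 110.4 and 102 CPM in XH7 against 323, 369 and 328 CPM in Z100 (1.68 ± 0.18 log2, adjusted p = 0.00034) and kept its call with any single library left out.

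The genes for making ribosomes were lower in Z100. Of 110 ribosome biogenesis genes, 0 were higher and 36 lower, with a median of -1.02, and 105 had every Z100 library below both XH7 libraries. Their summed level was 17010 to 17400 CPM in XH7 and 9713 to 10450 CPM in Z100. The count of lower genes was 14 whichever Z100 library was left out. Among all genes 505, 465 and 397 were then lower, without Z100 libraries 1, 2 and 3. The count fell further without either XH7 library, and without XH7 library 2 its share was no longer above that of all genes. Scaled by library size alone the count of lower biogenesis genes was 16, and with the replicate number as a block 21. It was 66 with limma-voom and 98 with the 30 °C libraries alone. RRP14, a nucleolar protein of both subunits' assembly, had 82.7 and 104 CPM in the XH7 libraries and 24.6, 23.8 and 39.7 CPM in the Z100 libraries (-1.67 ± 0.26 log2, adjusted p = 0.00211) and kept its call in all these refits. KRR1, a small-subunit processome component whose promoter is shown above, had 188 and 192 CPM in XH7 against 41.8, 45.1 and 47.6 CPM in Z100 (-2.08 ± 0.59 log2, adjusted p = 0.0277). Its call ended without each of the 5 libraries at 30 °C: the adjusted p was 0.0778, 0.0818 and 0.0764 without Z100 libraries 1 to 3, and 0.0996 and 0.141 without XH7 libraries 1 and 2. Scaled by library size alone it was 0.0506. The methyltransferase SPB1 had 156 and 180.4 CPM in XH7 against 42.6, 38.5 and 50.04 CPM in Z100 (-1.94 ± 0.35 log2, adjusted p = 0.00451; adjusted p = 0.0512 without XH7 library 2). Its promoter window held no GCGATGAG.

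Subunits of RNA polymerases I and III were lower in 4 of 21 genes and higher in 0, with a median of -0.80. Without Z100 libraries 1, 2 and 3 that count was 2, 1 and 0, and without either XH7 library 0. It was 1 when scaled by library size alone, 7 with DESeq2, 8 with limma-voom and 17 with the 30 °C libraries alone. The 137 cytosolic ribosomal proteins showed 1 higher and 4 lower gene calls and a median of -0.25, and 7 higher and 43 lower with the 30 °C libraries alone. They summed to 185900 to 209700 CPM in XH7 and 186500 to 201100 CPM in Z100, ranges that overlap. RPS14B was the 1 higher gene (153 and 142 CPM in XH7 against 461, 419.9 and 424 CPM in Z100, 1.56 ± 0.25 log2, adjusted p = 0.0026). RPL9B (568 and 480.5 CPM in XH7 against 222, 155 and 224 CPM in Z100, -1.39 ± 0.21 log2, adjusted p = 0.00193) was lower. Both calls held with any single library left out. The count of lower ribosomal proteins was 1 whichever library at 30 °C was left out.

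Sterol and secretory genes also leaned lower. Of 26 genes of ergosterol synthesis, 9 were lower and 2 higher, with a median of -0.37. The count of lower genes was 4 or 5 without a single Z100 library and 1 without either XH7 library. ERG11, lanosterol demethylase and the target of azole drugs, had 1119 and 1046 CPM in the XH7 libraries and 411, 464 and 465 CPM in the Z100 libraries (-1.28 ± 0.21 log2, adjusted p = 0.0029) and held with any single library left out. In the list of ER folding and the unfolded protein response, 7 of 21 genes were lower and 2 higher, with a median of -0.47. The count of lower genes was 4 without Z100 library 3 and 3 without either XH7 library. The thiol oxidase ERO1 had 107 and 124 CPM in XH7 against 49.04, 55.6 and 46.8 CPM in Z100 (-1.20 ± 0.19 log2, adjusted p = 0.00243), the exchange factor SIL1 49.3 and 53.1 CPM in XH7 against 20.5, 19.4 and 19.7 CPM in Z100 (-1.37 ± 0.18 log2, adjusted p = 0.000955), and the ER chaperone LHS1 45.5 and 50.6 CPM in XH7 against 20.3, 24.8 and 21.4 CPM in Z100 (-1.12 ± 0.18 log2, adjusted p = 0.00249).

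A pair of genes known from cells short of oxygen fell in Z100. ANB1, the form of translation factor eIF5A made when oxygen is scarce, fell: 79.2 and 64.2 CPM in the XH7 libraries and 8.57, 10.8 and 10.5 CPM in the Z100 libraries (-2.85 ± 0.25 log2, adjusted p = 0.00014). The cell wall mannoprotein TIR1, also known from anaerobic and cold-grown cells, had 476 and 418 CPM in XH7 against 66.9, 216 and 121 CPM in Z100 (-1.73 ± 0.37 log2, adjusted p = 0.00942), with a wide spread in Z100. The TIR1 call ended without XH7 library 1 (adjusted p = 0.059) or XH7 library 2 (0.0608). Of the 13 genes of the TIR and DAN list, 1 was higher and 1 lower. In the list of 29 thiamine and vitamin B6 genes, 3 were higher and 6 lower. THI73, a plasma membrane permease regulated by thiamine, had 58.2 and 61.8 CPM in XH7 against 18.5, 21.6 and 19.5 CPM in Z100 (-1.60 ± 0.21 log2, adjusted p = 0.00115), PET18 138 and 138 CPM in XH7 against 34.98, 49.9 and 40.3 CPM in Z100 (-1.73 ± 0.18 log2, adjusted p = 0.000269), and the vitamin B6 transporter TPN1 110 and 96.2 CPM in XH7 against 249, 224 and 243 CPM in Z100 (1.21 ± 0.17 log2, adjusted p = 0.00153). The count of lower thiamine genes was 3 without Z100 library 1 or 2 and 2 without Z100 library 3 or either XH7 library.

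Members of the pathway that balances growth against stress were called in both directions, as were genes at large. Of 22 genes of the Ras and protein kinase A pathway, 5 were higher and 4 lower, against 14.3% and 14.1% of all genes. Their median was -0.01. It turned to between 0.03 and 0.08 under RLE scaling, DESeq2, the 5 CPM filter, the block and the 30 °C libraries alone. Kinase subunit TPK2 rose, with 25.5 and 22 CPM in XH7 against 44.8, 55.5 and 43.4 CPM in Z100 (1.01 ± 0.21 log2, adjusted p = 0.00885; adjusted p = 0.114 without XH7 library 2). Kinase subunit TPK3 fell, with 45.8 and 49.05 CPM in XH7 against 24.9, 19.6 and 23.4 CPM in Z100 (-1.06 ± 0.17 log2, adjusted p = 0.00247). The high-affinity cyclic AMP phosphodiesterase PDE2 had 121 and 137 CPM in XH7 against 65.4, 54.6 and 65.1 CPM in Z100 (-1.06 ± 0.17 log2, adjusted p = 0.0023). TPK3 and PDE2 kept their calls with any single library left out. MSN2 and MSN4 were not called: MSN2 had 55.5 and 56.5 CPM in XH7 against 54.9, 56.5 and 47.4 CPM in Z100 (adjusted p = 0.754) and MSN4 87.4 and 86.4 CPM in XH7 against 55.2, 59.1 and 64.8 CPM in Z100 (adjusted p = 0.212). The count of higher genes in the list was 2 without Z100 library 2 or XH7 library 1 and 1 without XH7 library 2, and the count of lower genes was 2 without XH7 library 2.

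Some of the largest falls lay outside these pathways. BSC1 stood at 72.5 and 77.5 CPM in the XH7 libraries and 4.76, 7.996 and 3.55 CPM in the Z100 libraries (-3.79 ± 0.35 log2, adjusted p = 0.000178), and its chromosome IV neighbour PRM7, a pheromone-regulated membrane protein, at 433 and 457 CPM in the XH7 libraries and 37.5, 65.4 and 31.02 CPM in the Z100 libraries (-3.32 ± 0.39 log2, adjusted p = 0.000678). COS4, of a subtelomeric family of membrane proteins, had 20 and 20.6 CPM in XH7 against 3.30, 3.23 and 3.11 CPM in Z100 (-2.66 ± 0.19 log2, adjusted p = 8.49e-05). It has near-identical copies in COS1, COS2 and COS3, so the assignment of its reads is uncertain. KCC4, a kinase of the septin ring, had 25.3 and 25.4 CPM in XH7 against 4.90, 3.89 and 4.13 CPM in Z100 (-2.56 ± 0.21 log2, adjusted p = 0.000127), and MRC1, a checkpoint mediator of replication, 22.8 and 28.6 CPM in XH7 against 7.36, 4.59 and 4.19 CPM in Z100 (-2.25 ± 0.35 log2, adjusted p = 0.00215). These 5 calls held with any single library left out. RBP95 had 56.2 and 77.96 CPM in XH7 against 10.5, 14.3 and 14.9 CPM in Z100 (-2.34 ± 0.52 log2, adjusted p = 0.0111; adjusted p = 0.108 without XH7 library 2). SRO9, a La-motif RNA-binding protein, had 11.7 and 10.3 CPM in XH7 against 1.33, 1.79 and 2.33 CPM in Z100 (-2.59 ± 0.87 log2, adjusted p = 0.0487). The SRO9 call ended without each of the 5 libraries at 30 °C, with adjusted p from 0.103 without Z100 library 3 to 0.186 without XH7 library 2, and under RLE scaling (0.054), library size alone (0.0564), DESeq2 (0.213) and the block (0.128).

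KCC4, MRC1, RBP95, SRO9, KRR1, SPB1, PET18 and GRX1 lie on chromosome III, where the median of all genes was shifted. Of its 166 genes tested, 71 were lower (42.8%) and 7 higher (4.22%), and the median log2 fold change was -0.57. In the 3 Z100 libraries, each set against the XH7 mean, the median was -0.53, -0.55 and -0.51. The left and right arms had medians of -0.60 and -0.51. The medians of the other 15 nuclear chromosomes lay between -0.16 and 0.09, and the median of chromosome III at 50 °C was -0.61. The lowest median over 25 neighbouring genes, -0.88, ran from PTC6 to AAD3 on the right arm of chromosome III (chrIII:252845-314981). Its lowest value on any other chromosome was -0.56, on chromosome IV. HSP30, AGP1, CIT2 and GLK1 also lie on chromosome III and were called higher. So was PTC6 (1.18 log2), at the start of that lowest run, though its call did not hold with each single library left out. The AGP1 and GLK1 calls ended without XH7 library 2 (adjusted p = 0.0735 and 0.0962), and the CIT2 call without XH7 library 1 (0.0779) or XH7 library 2 (0.126). The left arm of chromosome VII had a median above 0: 68 of its 247 genes were higher (27.5%) and 14 lower (5.67%), with a median of 0.26 at 30 °C and 0.34 at 50 °C, against -0.11 for the right arm at 30 °C. Shares of higher genes were close to this on the left arm of chromosome XII, with 17 of 62 (27.4%, median 0.08), and the right arm of chromosome IX, with 11 of 42 (26.2%, median 0.24), where the medians at 50 °C were 0.03 and -0.09. The highest median over 25 neighbouring genes, 0.76 at 30 °C and 0.24 at 50 °C, ran from ETS2-2 to ASP3-4 on chromosome XII (chrXII:460712-487289), where the genes have near-identical copies and their counts are uncertain. Within the left arm of chromosome VII, the 25 genes from MTC3 to YIP4 (chrVII:73340-124298) had a median of 0.68 at 30 °C and 0.53 at 50 °C. DNA copy number was not measured, and its part in these shifts was not tested.

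**Figure D4:**
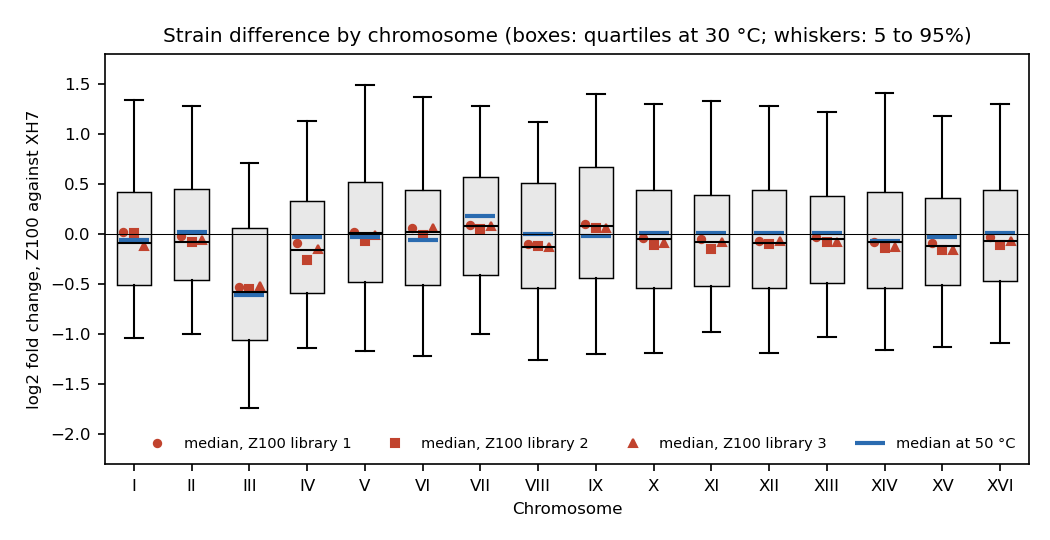
Log2 fold changes of Z100 against XH7 by chromosome. Boxes give the quartiles at 30 °C with the median as a black line and whiskers at the 5th and 95th percentiles, red symbols give the median in each Z100 library against the XH7 mean, and blue bars give the median at 50 °C. Chromosome III lies at -0.57 at 30 °C and -0.61 at 50 °C.

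Cell type differences between the strains were checked with mating genes. Of 7 a-specific genes, 4 alpha-specific genes and 17 haploid-specific or pheromone response genes, 0, 0 and 2 were called, both lower. Summed levels of the a-specific genes were 33.8 to 36.7 CPM in XH7 and 33.2 to 37.6 CPM in Z100. Those of the alpha-specific genes were 23.1 to 23.3 CPM and 33.0 to 38.9 CPM, and those of the haploid-specific genes 151 to 169 CPM and 132 to 144 CPM. The pheromone genes MFA1 and MF(ALPHA)1 had at most 0.58 CPM in every library at 30 °C. The alpha-specific gene MF(ALPHA)2 had 4.70 and 5.50 CPM in XH7 against 7.57, 10.2 and 7.05 CPM in Z100, and was not called (adjusted p = 0.106). The a-specific sums overlapped between the strains. The alpha-specific sums did not, with every Z100 library above both XH7 libraries, although none of the 4 genes was called. The haploid-specific sums did not overlap either, with every Z100 library below both XH7 libraries. Such separation was common: among all genes tested, 31.8% had every Z100 library above and 40.5% every one below. Of all genes, 28.4% were called. Whether these sums reflect a difference in cell type was not tested.

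Some of the most abundant called genes belong to none of the groups above. HPF1, a cell wall glycoprotein, had 209.5 and 188 CPM in XH7 against 1032, 1939 and 1526 CPM in Z100 (2.92 ± 0.39 log2, adjusted p = 0.0012), and kept its call with any single library left out. The cell wall protein SED1 had 1062 and 962 CPM in XH7 against 1882, 3195 and 2493 CPM in Z100 (1.32 ± 0.38 log2, adjusted p = 0.03). The ribose-5-phosphate ketol-isomerase RKI1 had 3044 and 2651 CPM in XH7 against 1653, 1285 and 1635 CPM in Z100 (-0.90 ± 0.20 log2, adjusted p = 0.012), and xylulokinase XKS1 1342 and 1295 CPM in XH7 against 795, 638 and 700.1 CPM in Z100 (-0.89 ± 0.27 log2, adjusted p = 0.0332). Calls for SED1, RKI1 and XKS1 ended without XH7 library 1 (adjusted p = 0.126, 0.0918 and 0.139) or XH7 library 2 (0.198, 0.0746 and 0.161). They also ended for SED1 without Z100 library 2 or 3 (0.0873 and 0.0702), and for XKS1 without Z100 libraries 1, 2 and 3 (0.0574, 0.0971 and 0.0906), library size alone (0.0727), limma-voom (0.0562) and the block (0.0628). Genes absent from 1 strain, with at most 3 counts in each of its libraries and at least 50 in each of the other's, numbered 0.

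After heat shock fewer genes were called between the strains: 242 were higher (4.02%) and 297 lower (4.94%), 8.96% in all, with no library shared with the comparison at 30 °C. Libraries of a group also varied more at 50 °C, with a median SD of log2 CPM of 0.324 in XH7 and 0.258 in Z100, and the part of this spread in the lower count was not tested. Genes called the same way at both temperatures numbered 114 among the higher, which is 13.2% of those at 30 °C and 47.1% of those at 50 °C. Among the lower they numbered 130, or 15.3% and 43.8%. In the opposite direction 12 and 15 genes were called. Across 6015 genes, which are not independent replicates, the differences at the 2 temperatures correlated with r = 0.33 (Pearson) and rho = 0.35 (Spearman). CTT1 (1.87 ± 0.26 at 50 °C, adjusted p = 0.0047), CIT1 (1.26 ± 0.20, 0.00772), FRE2 (2.06 ± 0.31, 0.00647), PRM7 (-2.29 ± 0.39, 0.0113), BSC1 (-1.93 ± 0.35, 0.0139) and COS4 (-2.90 ± 0.18, 7.36e-05) differed the same way at both. Fitted with the 50 °C libraries alone, 4 genes were called at 50 °C. The count of 539 was 188 and 186 without XH7 libraries 1 and 2 at 30 °C, 304 and 244 without Z100 libraries 1 and 3 at 30 °C, 328 without XH7 library 1 at 50 °C, and 318 and 146 without Z100 libraries 1 and 3 at 50 °C.

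The difference itself was tested as an interaction, and 257 genes passed, 4.27%: 98 upwards (1.63%) and 159 downwards (2.64%) from 30 to 50 °C. IGD1 and ICL2 were among the genes that differed most. At 50 °C they stood at 0.43 ± 0.31 and -0.57 ± 0.31, against 4.27 ± 0.38 and 3.27 ± 0.36 at 30 °C. Both were named for their rise at 30 °C, a value the interaction subtracts. HXT2, a transporter used at moderate glucose, was higher at 30 °C (1.17 ± 0.29 log2, adjusted p = 0.0178) and lower at 50 °C (-2.22 ± 0.28, adjusted p = 0.00364). The HXT2 call at 30 °C ended without Z100 library 2 (adjusted p = 0.0522), Z100 library 3 (0.051), XH7 library 1 (0.0767) or XH7 library 2 (0.165), and when scaled by library size alone (0.0621). PDH1 and the amino acid permease AGP1 also changed side, from 2.45 ± 0.22 and 1.25 ± 0.22 at 30 °C to -0.97 ± 0.21 and -1.39 ± 0.21 at 50 °C, with the AGP1 call at 30 °C lost without XH7 library 2 (adjusted p = 0.0735). The median of ribosome biogenesis genes was -1.02 at 30 °C and 0.29 at 50 °C, with 4 of 110 passing the interaction test. At 50 °C the TCA cycle list had 10 higher genes of 19, with a median of 0.57, and the respiratory chain list 12 of 39, with a median of 0.66. The interaction count rests on single libraries: it was 22 without XH7 library 1 at 30 °C and 2 without XH7 library 2, 114 and 57 without Z100 libraries 1 and 3 at 30 °C, 432 and 87 without Z100 libraries 1 and 3 at 50 °C, and 137 and 1065 without XH7 libraries 1 and 2 at 50 °C.

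**Figure D5:**
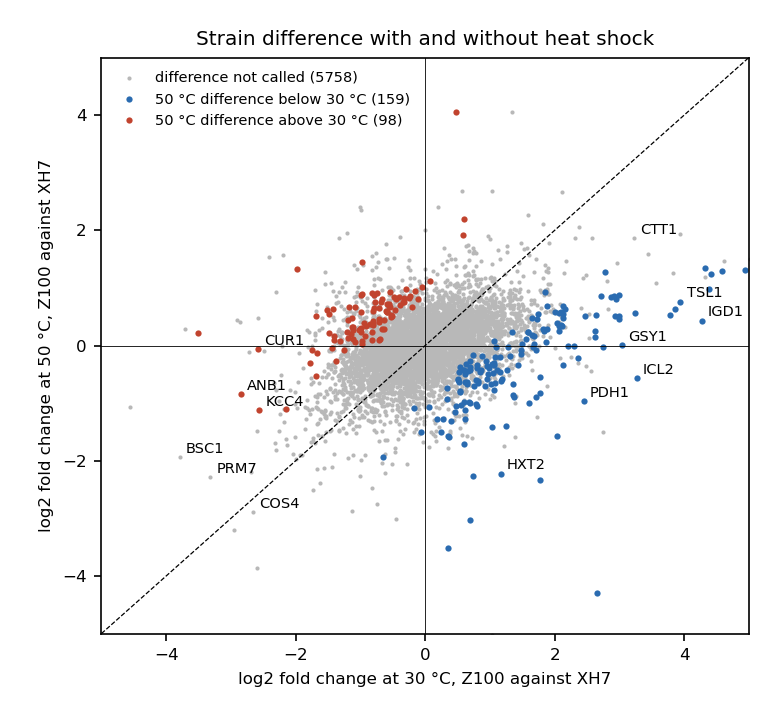
The log2 fold change of Z100 against XH7 at 30 °C (horizontal) and at 50 °C (vertical) for each gene, with the dashed line at equal values. Blue points are the 159 genes and red points the 98 genes whose difference at 50 °C was called below or above that at 30 °C, and 16 genes lie beyond the axes at 5. IGD1, TSL1 and GSY1 lie far right and below 1 on the vertical axis.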

How the data were processed

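Messenger RNA was selected by poly(A), made into libraries with the NEBNext Ultra kit and sequenced on a NovaSeq 6000, per the labels' protocols. The deposited files hold whole-number counts for each gene and the authors' FPKM values, which scale those counts to gene length and library total. The sources used here name no aligner, counting tool or genome build. Gene positions matched the R64 genome of RefSeq, from which promoter windows were read. Counts are less certain for 260 of 6059 genes that overlap a neighbour and for 310 with a close copy (BLAST 2.17.0, 95% identity or more across 50% of the length). The deposited counts also held 3 empty lines, which were dropped.

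Counts were fitted with edgeR 4.0.16 (limma 3.58.1, R 4.3.3), with TMM scaling, filterByExpr by group, and 1 model of 4 group means over all 10 libraries, which share 1 estimate of the spread. The quasi-likelihood test was adjusted by Benjamini-Hochberg over 6015 genes. The SE of a log2 fold change was taken from its F statistic. FPKM was used only for the levels and ranks of genes within each strain, and strain differences were not tested on it. In simulated data for 6015 genes at 30 °C, 100 genes were changed by 1 and 100 by 2 on the log2 scale. All of these had a mean of at least 10 CPM. The fit recovered 50% of those changed by 1 and 100% of those changed by 2, with 10 false calls. These shares may not hold for the real comparison, where many more genes were called, or for genes at lower levels. The intervals and floors of counting error (3 counts, 0.039 to 0.0578 CPM per library at 30 °C) do not cover biological spread. Tables were made with pandas 2.3.3 and figures with matplotlib 3.10.9 in Python 3.11.15.

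The comparison, its 52 gene lists and the genes named were chosen with earlier results of these data known. The rule names the 12 largest rises and falls among called genes with a symbol and at least 10 CPM in the higher group. Libraries of the strains must not overlap in these genes. Genes without a symbol, such as YOR338W and YBL005W-A, are not covered by this part, although they changed more than some that are. The rule also names up to 4 called members of each list in each direction (2 where none was called) and genes seen in 1 strain. It adds the 6 most abundant called genes in each direction, and the 6 with the smallest interaction p. The text gives mainly those whose call held without each library. MSN2, MSN4, MF(ALPHA)1, PET9, POR1, MIR1, YOR338W, RPE1, TAL1, TKL1, genes at the ends of chromosome runs and close copies were chosen outside that rule, with their values seen. The same results were computed with DESeq2 1.42.0, limma-voom, RLE, upper-quartile and library-size scaling, no filter, a filter of 5 CPM, each temperature alone, the replicate number as a block, and each library left out.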

Additional observations from a re-analysis of the deposited data

Results flagged for a closer look

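The strain difference at 50 °C differed from that at 30 °C in 257 genes by the interaction test, and 46 genes named in the text were among them, with adjusted p from 6.86e-06 to 0.0488 (edgeR quasi-likelihood test, Benjamini-Hochberg). The values below are the log2 difference at 50 °C minus that at 30 °C. A gene higher in Z100 at 30 °C and less so after heat therefore has a negative value. Most of these genes were named for their difference at 30 °C, which the interaction subtracts, and some for a small interaction p. The signs, and in part the calls, thus follow from how the genes were chosen. The count was 2 without XH7 library 2 at 30 °C and 22 without XH7 library 1, so each of these differences rests on few libraries.

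Storage carbohydrate genes had values of -3.84 for IGD1, -3.18 for TSL1, -3.04 for GSY1, -2.48 for GLC3 and -2.11 for GPH1. Stress and chaperone genes had values of -2.68 for RTC3, -2.47 for HSP30, -1.82 for HSP42 and 2.52 for CUR1. Sugar and carbon genes had values of -3.39 for HXT2, -1.44 for HXK1, -2.59 for GLK1, -1.79 for MAL31, -3.84 for ICL2, -3.42 for PDH1, -1.26 for DLD1 and -2.32 for CIT2. Mitochondrial genes had values of -2.37 for SDH1, -1.19 for SDH2, -1.51 for SDH4, -1.65 for COX5A, -1.50 for INH1, -0.92 for MNP1, -1.96 for PET9, -2.12 for POR1 and -1.52 for MIR1. Iron and antioxidant genes had values of -2.14 for FET3, -1.87 for FTR1, -1.80 for AHP1, -1.35 for PRX1 and -2.52 for SRX1. Nitrogen and amino acid genes had values of -2.78 for PUT4, -2.46 for MUP3, -1.68 for CAR2, -2.43 for GAD1, -2.64 for AGP1 and -1.29 for AAT2. Other genes had values of 2.01 for ANB1, 1.43 for ERO1, 1.53 for RRP14, 1.43 for KCC4, -2.06 for HPF1, -1.51 for PEP4, -1.79 for PTC6, -7.00 for YBL005W-A and 3.73 for YOR338W.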

How the results depend on the processing

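At 30 °C the number of genes called was 1227 to 2113 under the other scalings, filters and tools, and 3155 with the 5 libraries alone. With a filter of 5 CPM the split was 981 higher and 620 lower. The median of all genes moved from -0.08 to -0.21 when scaled by library size alone. DESeq2 called 1070 genes at 50 °C, 841 for the interaction and 463 the same way at both temperatures. Fits of each temperature alone gave 4 at 50 °C and 3 shared, and library size alone 158 shared. Leaving out single libraries gave 292 to 2223 genes at 30 °C, 146 to 607 at 50 °C, 2 to 1065 for the interaction and 70 to 284 shared. The cause was not tested.

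With the replicate number as a block, 1487 genes were called at 30 °C, 240 at 50 °C, 152 for the interaction and 131 shared. Same-numbered libraries at 30 °C did not deviate together (r = -0.107 and -0.145), while those at 50 °C did (r = 0.635 and 0.529). With 2 numbers shared, this does not settle whether the numbers pair the libraries at 50 °C. Of 93 named genes called at 30 °C, all 93 kept their direction in every setting run, 71 kept the call without each single library (22 lost it without XH7 library 2 and 14 without XH7 library 1), and 87 kept it in every other setting. Most were chosen for the text because their call held: of all 241 called genes that the naming rule gives, 69 kept the call with each single library left out. Depth limits genes near the floor: 209 genes were under 1 CPM in both strains at 30 °C.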

Other observations

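Retrotransposon genes, examined after their values were seen, differed between the strains. Of 41 annotated Ty gag genes tested, 25 were higher in Z100 and 1 lower, with a median log2 fold change of 2.65, and their summed level was 22.1 and 40.6 CPM in the XH7 libraries and 227, 261 and 270 CPM in the Z100 libraries. Of 45 gag-pol genes, 2 were higher and 40 lower, with a median of -1.67 and sums of 1186 and 1260 CPM in XH7 against 752, 699 and 621 CPM in Z100. Taken as 1 set, 27 of the 86 genes were higher and 41 lower, with a median of -0.96, and the sums were 1208 and 1301 CPM in XH7 against 980, 959 and 891 CPM in Z100, lower in every Z100 library. YBL005W-A, a gag gene, had 0.210 and 0.192 CPM in XH7 against 52.9, 49.5 and 48.8 CPM in Z100 (7.96 ± 0.25 log2, adjusted p = 1.54e-07). In all, 85 have near-identical copies and 78 overlap another gene, so reads of single elements, and of gag and gag-pol, cannot be told apart.

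PET9, POR1 and MIR1, which serve transport across mitochondrial membranes, were higher in Z100. They were also named after their values were seen, and other mitochondrial carriers are not given. The ADP/ATP carrier PET9 had 156 and 147 CPM in XH7 against 657, 1093 and 771 CPM in Z100 (2.47 ± 0.25 log2, adjusted p = 0.000264), the outer membrane porin POR1 72.6 and 59.2 CPM in XH7 against 349.9, 527 and 362 CPM in Z100 (2.65 ± 0.33 log2, adjusted p = 0.000847), and the phosphate carrier MIR1 159 and 148 CPM in XH7 against 588, 809.7 and 658 CPM in Z100 (2.16 ± 0.20 log2, adjusted p = 0.000184). YOR338W went the other way, with 108 and 114 CPM in XH7 against 11.6, 8.37 and 9.22 CPM in Z100 (-3.51 ± 0.34 log2, adjusted p = 0.000201).

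Genes of the non-oxidative pentose phosphate pathway were abundant in both strains by the deposited FPKM. Ranked by mean FPKM among 6015 genes, RPE1 was at rank 13 in XH7 and 7 in Z100, TAL1 at 24 and 45, RKI1 at 59 and 110, TKL1 at 114 and 93, and XKS1 at 226 and 375. RPE1 had 10032 and 8888 FPKM in XH7 and 13000, 15495 and 13903 FPKM in Z100.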
